A study of Mus musculus with 6 samples.

Results

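Messenger RNA of the cytosolic ribosomal protein genes was examined in hearts of 18-month-old wild-type (WT) female mice, 3 after TAC surgery and 3 after sham surgery. TAC usually stands for transverse aortic constriction, surgery that makes the left ventricle pump against a higher pressure. Sham animals went through surgery as their control, and both groups shared age, sex and genotype. The labels name no strain, no time since surgery and no part of the heart, and no agent other than the surgery. The genes were the protein-coding entries whose symbol is Rpl or Rps with a number and at most an a, x, y or l suffix, together with Rplp0, Rplp1, Rplp2 and Rpsa. This rule gave 80 of the 22298 genes measured, 31 of the small (40S) subunit and 49 of the large (60S) subunit. Symbols that end otherwise or have another stem, such as Rps3a1, Rpl36al, Rpl22l1, Fau and Rack1, lie outside the rule and are described separately.

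Each cytosolic ribosome carries a single copy of nearly every one of these proteins around its ribosomal RNA, the small subunit decoding the messenger RNA and the large subunit joining amino acids and passing the new chain through an exit tunnel. Most vertebrate messenger RNAs of this family begin with a C followed by a run of pyrimidines, the 5′ terminal oligopyrimidine or TOP motif, through which mTORC1 and LARP1 control their translation; LARP1 is also known to stabilise these messages. Striated muscle is known for a paralog swap: Rpl3l, made in heart and skeletal muscle, takes the place of the ubiquitous Rpl3 near the peptidyl transferase centre, and in mouse muscle Rpl3 is known to return and Rpl3l to decline when the tissue grows or is injured.

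The starts of some of the messenger RNAs discussed here are shown to display the pyrimidine run. They are RefSeq sequences on GRCm38.p6, from 10 bases before the annotated start to 20 bases from it onwards, 5′ to 3′ on the gene's strand, and capitals mark the C and the pyrimidines that follow it without a break.
Rps27, chr3:90213629-90213658, minus strand: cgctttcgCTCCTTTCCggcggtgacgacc
Rpl38, chr11:114668570-114668599, plus strand: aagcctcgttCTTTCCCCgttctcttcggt
Rps12, chr10:23787190-23787219, minus strand: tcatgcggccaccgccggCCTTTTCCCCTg
Rps6, chr4:86857348-86857377, minus strand: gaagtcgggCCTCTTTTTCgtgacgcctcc
Rpl27a, chr7:109519185-109519214, plus strand: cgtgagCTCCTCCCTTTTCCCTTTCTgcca
Rpl3l, chr17:24727816-24727845, plus strand: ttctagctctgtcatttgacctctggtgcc
A run was counted when a C within 10 bases either side of the annotated start was followed by at least 7 pyrimidines. A start region was on hand for 60 of the 80 genes, and 23 of them (38.3%) held such a run, against 2457 of 27025 genes overall (9.09%). The longest run, of 20 bases, was that of Rpl27a, and in Rpl38 and Rps15a the C was exactly the annotated first base. Rpl3l held none. Rpl3 was among the 20 genes not matched. The count depends on where RefSeq places the start. For Rps2 the start used was 24720063, inside a gene that begins at 24718116 in GENCODE. A gene scored without a run may therefore still carry a TOP motif.

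Other short motifs were searched in the same 60 genes. CCGGAAG, the core bound by the ETS factor GABP, was found on either strand in the window of 250 bases before to 50 bases after the start in 25 of 60 ribosomal protein genes (41.7%), against 9.93% of all genes. AAGATGG, a core of the YY1 site, was present in 9 of 60 (15%), against 7.28%. The letters TATAAA were present in 6 of 60 (10%), against 15.7% of all genes. These are matches of letters and do not show that a factor was bound. The 250 bases before the start of Rpl3l, on the plus strand at chr17:24727576-24727825 of GRCm38.p6, are shown because this gene departed most from the rest of the family.
Rpl3l, upstream: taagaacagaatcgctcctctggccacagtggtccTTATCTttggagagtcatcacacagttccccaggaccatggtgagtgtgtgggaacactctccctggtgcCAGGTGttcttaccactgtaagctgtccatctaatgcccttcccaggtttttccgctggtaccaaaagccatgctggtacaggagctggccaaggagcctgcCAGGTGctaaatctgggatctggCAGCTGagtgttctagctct
Capitals mark 3 E-boxes (CANNTG, the letters recognised by basic helix-loop-helix factors, a class that includes the myogenic factors) at -145, -43 and -20 from the start. The first capitals mark AGATAA read on the other strand, a GATA-type site, at -215. An E-box was present in 53.3% of the ribosomal protein genes and in 75% of all genes, and AGATAA in 8.33% against 12.7%. Neither match is thus unusual for a promoter. These shares are for windows that also hold the 50 bases after the start.

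The libraries held 25799573, 23361356 and 22172718 estimated counts after TAC and 19747265, 27549838 and 21091881 after sham surgery. Of these, 25.7% to 30.5% came from mitochondrially encoded genes. On the first principal component of all genes TAC replicate 1 stood apart from the other TAC libraries: TAC replicates 1, 2 and 3 lay at 0.653, 48.9 and 53.5, against -31.4, -34.4 and -37.3 for the sham libraries. The labels name no batch. The hearts expressed the cardiomyocyte markers strongly (in CPM, counts scaled to library size; Myh6, Tnnt2, Tnni3, Actc1, Ryr2 and Pln, summed to 28935 to 40383 CPM after TAC and 40196 to 41346 CPM after sham surgery). Over all 13708 genes tested with edgeR's quasi-likelihood test, 227 passed an adjusted p of 0.05 (1.66%), 153 of them with higher values after TAC (1.12%) and 74 with lower values (0.54%).

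None of the 78 tested ribosomal protein genes passed that threshold in either direction. Their fold changes nonetheless had nearly all 1 sign: 76 of 78 were positive, against 52.9% of all tested genes, and the median log2 fold change of TAC over sham was 0.24, against 0.03 over all tested genes. Fold changes ran from -0.86 for Rpl3l to 0.61 for Rpl3, with standard errors of 0.12 to 0.35 on the log2 scale. The smallest adjusted p was 0.0927, for Rps27, and the largest was 0.986, for Rps14 (edgeR, Benjamini-Hochberg over all tested genes, as for every adjusted p below with no other tool named). At an unadjusted p under 0.05 there were 14 genes with positive fold changes and 1 with a negative one, 15 of 78 in all, against 25.6% of all tested genes. The 78 genes share libraries and vary together, so their number does not count as replication.

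**Figure D1:**
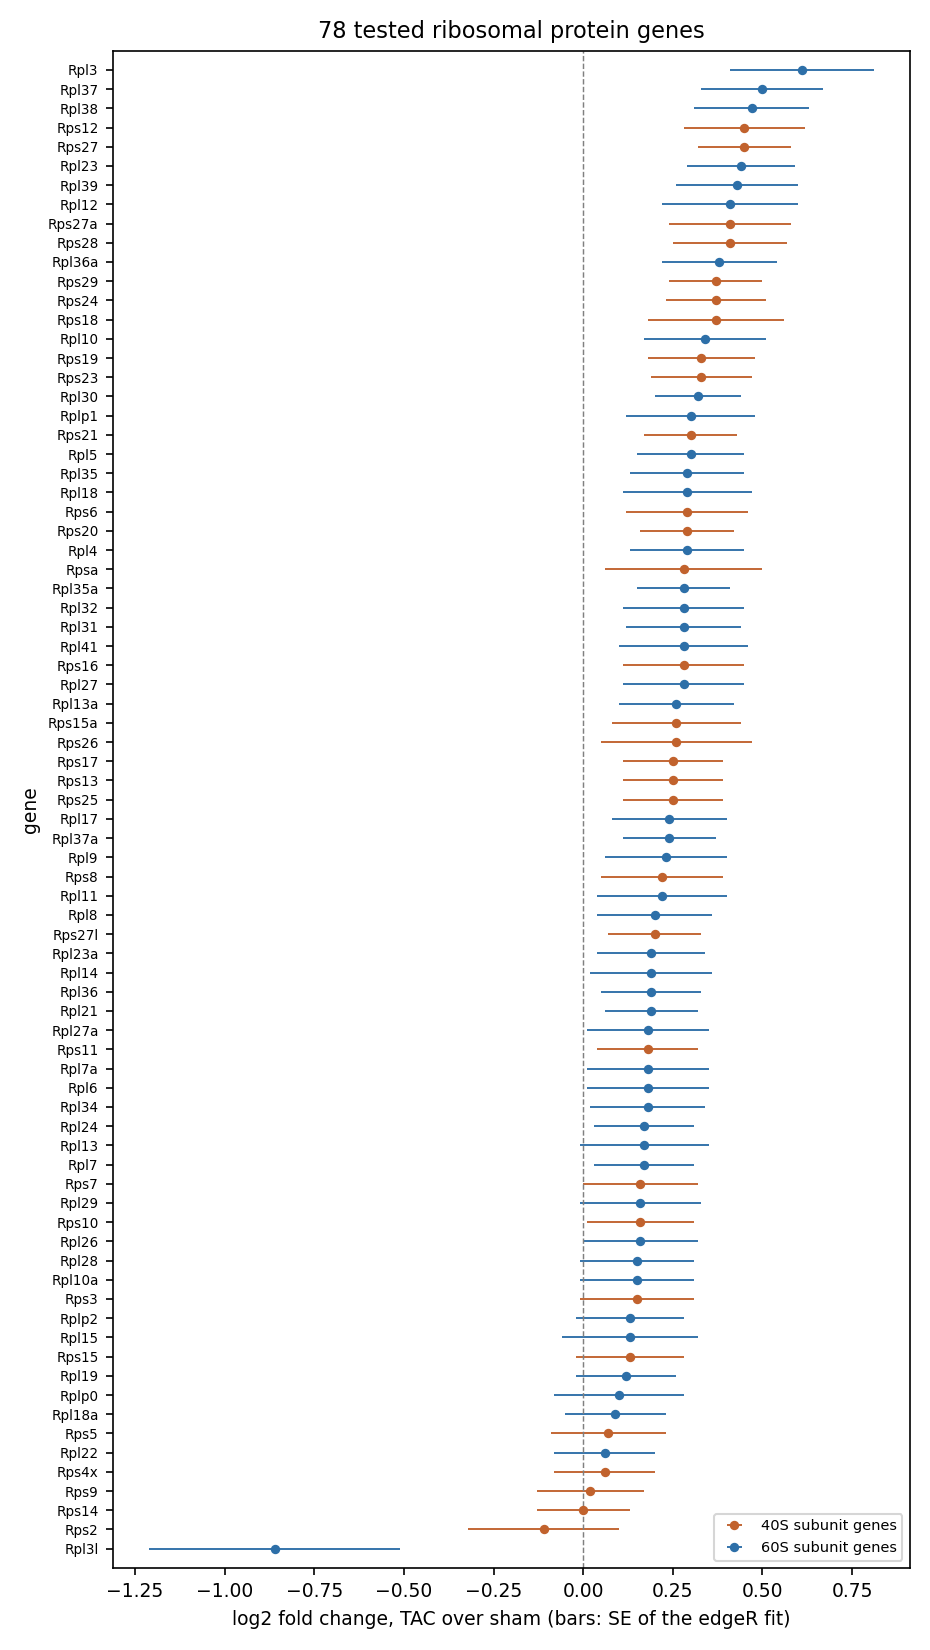
Log2 fold change of TAC over sham (horizontal axis) for the 78 tested ribosomal protein genes, with bars for the standard error of the edgeR fit (n = 3 libraries per group) and colour for the subunit. Points lie right of 0 except for Rps2 and Rpl3l, to its left, and Rps14, at 0.00. Rpl3 is at the top at 0.61 and Rpl3l at the bottom at -0.86.

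Both subunits gave like values. The 31 genes of the 40S subunit had a median log2 fold change of 0.26 and the 47 tested genes of the 60S subunit 0.22, and 0 of either set passed the threshold. The TAC and sham libraries did not overlap for 19 members with higher values after TAC, against 18.4% of all tested genes, and for 1 member with lower values, against 13.1%. Those above were 8 of the small subunit (Rps12, Rps20, Rps23, Rps24, Rps27, Rps27a, Rps28 and Rps29) and 11 of the large one (Rpl3, Rpl4, Rpl12, Rpl21, Rpl23, Rpl30, Rpl35a, Rpl36a, Rpl37, Rpl38 and Rpl39), and the 1 below was Rpl3l. As a share of 78, the 19 are close to the background, so the separation of groups is not a result about this family.

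The positive sign rested on particular hearts. Expressed as log2 CPM above the mean of the sham libraries, the median ribosomal protein gene lay at 0.22, -0.02 and 0.47 in TAC replicates 1, 2 and 3, and at 0.00, 0.11 and -0.11 in sham replicates 1, 2 and 3. TAC replicate 2 was thus at the level of the sham hearts, TAC replicate 1 was above them and TAC replicate 3 was the highest of all. The median over all genes stayed between -0.01 and 0.04 in the 6 libraries. TAC replicate 3 had the highest value of the 6 libraries for 74 of 78 ribosomal protein genes, against 26.8% of all tested genes, and TAC replicate 2 was the lowest of the TAC libraries for 75. Values above the whole sham range were found for 68 members in TAC replicate 1, 19 in TAC replicate 2 and 75 in TAC replicate 3, where the same held for 36%, 38.8% and 43.2% of all tested genes.

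**Figure D2:**
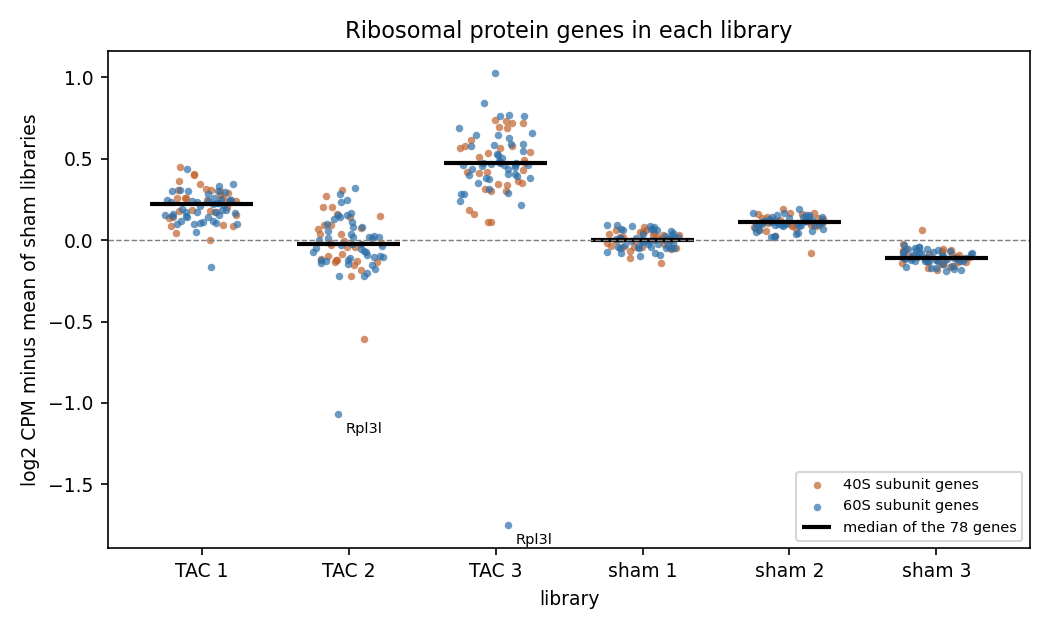
Log2 CPM minus the mean of the sham libraries (vertical axis) for each of the 78 tested ribosomal protein genes in each library, with the median as a black line. The genes of a library lie close together, with medians of 0.22, -0.02 and 0.47 in TAC replicates 1 to 3 and 0.00, 0.11 and -0.11 in sham replicates 1 to 3; Rpl3l lies far below the others in TAC replicates 2 and 3.

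Without TAC replicate 3 the median log2 fold change of the family was 0.08, with 62 of 78 genes positive, and the median of all genes was -0.01. Leaving out TAC replicate 2 gave 0.32. TAC replicates 2 and 3, neighbours on the principal component, were thus at opposite ends of the TAC group for this family. The standard deviation of log2 CPM, taken as the median over members, was 0.259 between TAC libraries and 0.113 between sham libraries. Over all tested genes it was 0.242 between TAC libraries and 0.125 between sham libraries.

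In absolute terms the family took a small part of the libraries. Its summed estimated counts were 485845, 384660 and 559994 after TAC, and 339800, 513011 and 350169 after sham surgery. These made 1.88%, 1.65% and 2.53% of all counts in the TAC libraries and 1.72%, 1.86% and 1.66% in the sham libraries, or 2.02% ± 0.455 after TAC and 1.75% ± 0.104 after sham surgery (SD, n = 3 each). The TAC replicate 2 share was just below the lowest sham share, the TAC replicate 1 share just above the highest, and the TAC replicate 3 share well above it. With mitochondrially encoded genes left out of the total, the shares were 2.71%, 2.34% and 3.45% after TAC and 2.43%, 2.56% and 2.24% after sham surgery. TAC replicate 2 then lay inside the sham range. The means were 2.83% ± 0.567 after TAC and 2.41% ± 0.162 after sham surgery.

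Rpl3l, the muscle paralog of Rpl3, had 149, 79.4 and 49.3 CPM after TAC, against 156, 186 and 161 CPM after sham surgery. All TAC values lay below all sham values, TAC replicate 1 only just and TAC replicate 3 at the greatest distance. Its log2 fold change was -0.86 (SE 0.35), with an adjusted p of 0.17 in edgeR's test. Rps2 had the only other negative fold change of the family. Without TAC replicate 1 the fold change of Rpl3l was -1.39 on the log2 scale and the adjusted p was 0.00986 by edgeR. Without TAC replicate 3 they were -0.57 and 0.225. Leaving out TAC replicate 1 made many more genes of the whole table pass than with all 6 libraries. Of the 78 ribosomal protein genes only Rpl3l and Rpl37 then passed.

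Rpl3, the ubiquitous form, showed the opposite sign with 371, 325 and 557 CPM after TAC and 276, 283 and 262 CPM after sham surgery. The groups did not overlap, and TAC replicate 3 was well above the others. The log2 fold change was 0.61 (SE 0.20) and the adjusted p 0.116 by edgeR, so it did not pass the threshold. By the Wald test of DESeq2 it passed, at 0.58 with an adjusted p of 0.0379. Over all 13708 genes that test passed 1071 with higher and 598 with lower values after TAC, and 2 of the 78 ribosomal protein genes. Without TAC replicate 3 the edgeR fold change of Rpl3 was 0.33 on the log2 scale, with an adjusted p of 0.158.

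The FPKM ratio of Rpl3l to Rpl3, which corrects for gene length, was 0.405, 0.247 and 0.0899 after TAC and 0.561, 0.657 and 0.608 after sham surgery. Every TAC ratio was below every sham ratio, with means of 0.247 ± 0.158 in TAC hearts and 0.608 ± 0.0483 in sham hearts (SD, n = 3 each). The mean log2 ratio was lower by a difference of -1.55, so the geometric mean ratio of TAC hearts was 0.342 times that of sham hearts. An exact two-sided permutation test over the libraries gave p = 0.1, which is the smallest p that 3 against 3 can give. Rpl3l made 28.8%, 19.8% and 8.25% of the FPKM of the pair after TAC, and 35.9%, 39.7% and 37.8% after sham surgery. Without TAC replicate 3 the log2 difference of the ratio was -0.94, and without TAC replicate 1 it was -2.03. The pair's summed level was 520, 404 and 606 CPM in TAC hearts and 432, 469 and 423 CPM in sham hearts, so the sums overlapped between groups while the split between the paralogs did not.

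**Figure D3:**
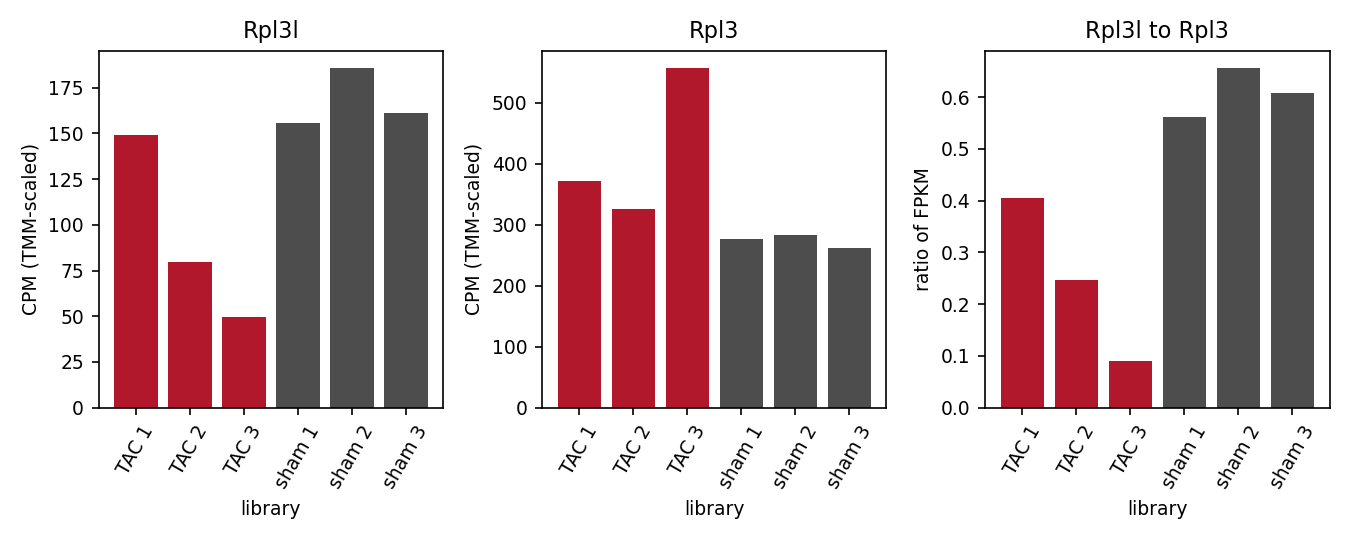
CPM of Rpl3l and of Rpl3 and the ratio of their FPKM (vertical axes from 0) in each library, TAC in red and sham in grey. The ratio is 0.405, 0.247 and 0.0899 in TAC replicates 1 to 3 and 0.561 to 0.657 in sham libraries.

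The coding sequences of the pair differ along their length. A stretch of the coding sequences, bases 301 to 360 of each in the GENCODE transcripts of GRCm38, is shown with the bases that differ in capitals.
Rpl3l: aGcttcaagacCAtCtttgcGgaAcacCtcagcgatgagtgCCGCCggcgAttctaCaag
Rpl3: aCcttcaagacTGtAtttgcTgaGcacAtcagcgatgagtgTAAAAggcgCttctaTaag
In this stretch 14 of 60 bases differ. Over the whole alignment 894 of 1212 bases were identical (73.8%), and the longest run without a difference was 22 bases. Both genes had whole counts in every library. Rpl3l spans chr17:24727820-24736143 and Rpl3 chr15:80077791-80091868 in GRCm38.

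The other paralogs with an l suffix behaved otherwise. Rps27l, a paralog of Rps27 known as a p53 target, had 52.8, 43.5 and 55.9 CPM after TAC and 44.6, 41.6 and 46.1 CPM after sham surgery, groups that overlapped (log2 fold change 0.20, SE 0.13, adjusted p 0.344 by edgeR). Its FPKM ratio to Rps27 was 0.215, 0.2 and 0.202 after TAC and 0.247, 0.214 and 0.276 after sham surgery, with 1 sham value inside the TAC range (exact two-sided permutation p = 0.2). Rpl10l and Rpl39l, known from testis, were hardly seen: Rpl10l had 0 counts in all 6 libraries, which with 3 counts as the limit allows at most 0.154 CPM in the shallowest (counting error only), and Rpl39l had 2, 2 and 6 counts in TAC libraries and 5, 5 and 0 in sham libraries. Neither could be tested. Their parent genes were abundant, Rpl10 with 205 to 311 CPM after TAC and 189 to 212 CPM after sham surgery.

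Of the small subunit, Rps27 came nearest to the threshold. This zinc-binding protein of the 40S subunit had 170, 150 and 191 CPM after TAC and 125, 134 and 115 CPM after sham surgery, with every TAC value above every sham value. Its log2 fold change was 0.45 (SE 0.13) and its adjusted p 0.0927 by edgeR, against 0.0291 by the Wald test of DESeq2 at a fold change of 0.43. The Wald test also passed many more genes over the whole table, 1071 higher and 598 lower after TAC. The deposited counts of Rps27 were fractional, so part of its reads may have been divided between genes, and its value carries that uncertainty. Rps12 had 179, 151 and 225 CPM in TAC hearts and 141, 146 and 120 CPM in sham hearts. Its groups did not overlap, and the log2 fold change was likewise 0.45 (SE 0.17, adjusted p 0.148), or 0.27 without TAC replicate 3. Rps27a, which is made as a fusion with ubiquitin, had 189, 171 and 258 CPM after TAC and 161, 161 and 142 CPM after sham surgery (log2 fold change 0.41, adjusted p 0.179). Rps29 had 103, 95.8 and 123 CPM in TAC hearts and 85, 87.4 and 77.2 CPM in sham hearts (0.37, adjusted p 0.125).

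Rps28, Rps24, Rps23 and Rps20, whose groups also did not overlap, had log2 fold changes of 0.41, 0.37, 0.33 and 0.29. Rps6, the substrate of the S6 kinases downstream of mTORC1, had 445, 368 and 551 CPM after TAC and 361, 410 and 348 CPM after sham surgery (log2 fold change 0.29, SE 0.17, adjusted p 0.331 by edgeR). TAC replicate 2 lay inside the sham range. Rpsa, also known as the laminin receptor, had 623, 502 and 894 CPM in TAC hearts and 570, 588 and 500 CPM in sham hearts (0.28, SE 0.22). Rps19, the gene most often affected in Diamond-Blackfan anaemia in people, had a log2 fold change of 0.33 (adjusted p 0.218), and Rps25, needed for initiation at some internal ribosome entry sites, of 0.25 (0.298). Rps14 had 366, 319 and 384 CPM after TAC and 349, 382 and 335 CPM after sham surgery, a log2 fold change of 0.00.

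Rps2 was the other gene with a negative fold change. It forms part of the messenger RNA entry channel and had 1050, 690 and 1195 CPM after TAC, against 1025, 1177 and 958 CPM after sham surgery. TAC replicate 2 was low and the rest overlapped (log2 fold change -0.11, SE 0.21, adjusted p 0.779 by edgeR), and without TAC replicate 2 the fold change was 0.06. Set against the median ribosomal protein gene of the same library, Rps2 lay at -0.17, -0.58 and -0.26 in TAC libraries and at -0.05, 0.06 and -0.02 in sham libraries on the log2 scale. On the same measure Rpl3l lay at -0.33, -1.05 and -2.20 in TAC libraries and at -0.11, 0.05 and 0.06 in sham libraries, while Rpl3 lay at 0.27, 0.27 and 0.58 in TAC libraries and between -0.05 and 0.05 in sham libraries. This measure removes the shift of the whole family in TAC replicate 3, and 69 of 78 genes stayed within 0.2 of the family's median change.

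Of the large subunit, the small proteins Rpl37, Rpl38 and Rpl39 had some of the higher fold changes after Rpl3. Rpl37 had 90.7, 89.4 and 132 CPM in TAC hearts and 73.1, 79.9 and 67.9 CPM in sham hearts (log2 fold change 0.50, SE 0.17, adjusted p 0.12 by edgeR). Its groups did not overlap. Without TAC replicate 1, where many more genes passed over the whole table, Rpl37 passed the threshold at 0.57 (adjusted p 0.0471). Without TAC replicate 3 it was at 0.28 (adjusted p 0.189). Rpl38, which in mouse embryos is needed for the translation of a set of Hox messenger RNAs, had 66.2, 61.1 and 89 CPM after TAC and 49.2, 56.1 and 50.8 CPM after sham surgery (0.47, SE 0.16, adjusted p 0.114). Rpl39, a short protein that lines the exit tunnel, had 60.5, 54.5 and 83.1 CPM after TAC and 49.1, 52.6 and 45.2 CPM after sham surgery (0.43, SE 0.17, adjusted p 0.159). In both, the lowest TAC value exceeded the highest sham value, and without TAC replicate 3 the fold changes were 0.28 for Rpl38 and 0.22 for Rpl39. Rpl23 had 189, 187 and 235 CPM in TAC hearts and 159, 160 and 132 CPM in sham hearts (0.44, adjusted p 0.115).

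The functional parts of the large subunit differed little from each other. Rplp0, Rplp1 and Rplp2, the acidic stalk that recruits the elongation factors, had log2 fold changes of 0.10, 0.30 and 0.13, and in each the TAC and sham values overlapped. Rpl5 and Rpl11, which form a particle with the 5S ribosomal RNA and can bind MDM2 when ribosome assembly fails, had log2 fold changes of 0.30 (adjusted p 0.24) and 0.22 (adjusted p 0.45). The 9 genes of proteins at or near the exit tunnel had a median of 0.24 and a range of 0.06 to 0.43. Rpl10a, known in mouse cells for marking ribosomes that favour certain messages, was at 0.15, and Rpl13a, known for silencing of inflammatory transcripts after it leaves the ribosome, at 0.26. Rpl22, with a paralog that can replace it, was at 0.06 and Rpl41, among the shortest proteins known, at 0.28. The 19 genes affected in Diamond-Blackfan anaemia, a list that spans both subunits, had a median of 0.28. In these sets 0 genes passed the threshold, and all fold changes were positive, as in 76 of the 78.

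Compared per length, the family lay among the most abundant messages of the heart. The median member had 287 FPKM (quartiles 199 and 386), against 5.66 FPKM for the median tested gene, which places it at percentile 98.3. The 40S genes had a median of 317 FPKM and the 60S genes 255 FPKM. Levels spanned a range of 27.1 times. Rps2 was at the top, with 984 ± 294 FPKM after TAC and 1054 ± 96.3 FPKM after sham surgery (SD, n = 3 each), followed by Rplp0 with means over the 6 libraries of 665 FPKM, Rps14 with 597, Rps15 with 593 and Rpl23a with 584. The last of these differ by less than the spread between libraries. At the bottom were Rps20 with 37.5 FPKM, Rpl39 with 94.3, Rps27l with 95.0, Rpl3l with 95.9 and Rpl36a with 99.7, of which Rpl39, Rps27l and Rpl36a do not differ beyond their spread. Rpl3l was this low in the TAC hearts, with 68.1 ± 34.4 FPKM, and at 124 ± 11.5 FPKM in the sham hearts, where Rpl37 (88.1 FPKM), Rps28 (93.4 FPKM) and Rps16 (102 FPKM) also lay below it.

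**Figure D4:**
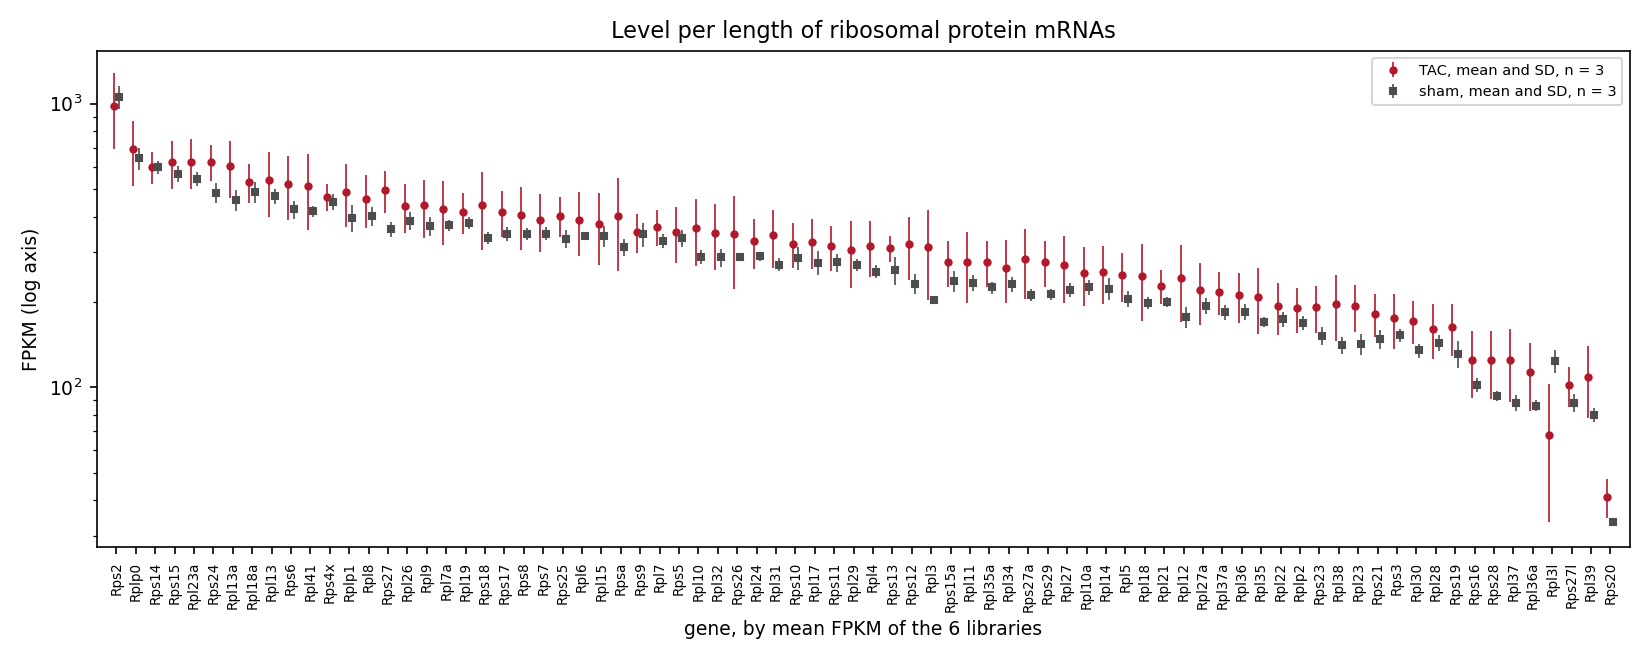
Deposited FPKM (log axis) of the 78 tested ribosomal protein genes in order of their mean over the 6 libraries, with mean and SD of the 3 TAC libraries in red and of the 3 sham libraries in grey. Levels run between 1019 FPKM for Rps2 and 37.5 FPKM for Rps20, and at Rpl3l the TAC mean lies below the sham mean.

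The low FPKM of Rps20 went with the length behind it. The deposited counts and FPKM together imply a length of 3706 bases for Rps20, which is that of its longest annotated transcript, against a median of 715 bases for the family. Its CPM were not low, at 161, 131 and 167 CPM after TAC and 126, 130 and 119 CPM after sham surgery. Every TAC value was above every sham value, the lowest by little (log2 fold change 0.29, adjusted p 0.204 by edgeR). Rps3, Rpl4 and Rpsa also had implied lengths over 2 times the median, which lower their FPKM by arithmetic alone. The length behind the FPKM also varied between libraries for some genes, and the log2 fold change of Rpl13a was 0.26 on counts and 0.38 on FPKM plus 1.

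Components of the ribosome outside the naming rule showed a like picture. Of the 7 reported here 0 passed the threshold, with a median log2 fold change of 0.25. Rack1, a scaffold on the 40S head, was at 0.14 and Rps3a1 at 0.18, both with overlapping groups. Rpl36al, the autosomal paralog of Rpl36a, had 33.6, 32.7 and 45.8 CPM after TAC and 25.5, 27.1 and 23.9 CPM after sham surgery (0.55, SE 0.16, adjusted p 0.0866). Its TAC values all lay above its sham values.

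A list of other genes whose messages carry TOP motifs, mostly translation factors together with Npm1, Hnrnpa1 and Tpt1, had fold changes of both signs. Of 13, 0 passed, 7 were positive and 6 negative, and their median log2 fold change was 0.02, with a range of -0.31 for Eef2 to 0.78 for Npm1. The difference from the ribosomal protein genes was not tested. In TAC replicates 1, 2 and 3 the list's medians lay at 0.06, -0.16 and 0.03 above the sham mean, but single genes went both ways. The list's summed level was 6653, 6170 and 7351 CPM in TAC hearts and 6439, 7199 and 6464 CPM in sham hearts, highest in TAC replicate 3. Eef2, which moves the ribosome along the message, had 1610, 1320 and 1700 CPM after TAC and 1709, 2072 and 1954 CPM after sham surgery (-0.31, adjusted p 0.256). Eef1a1, the ubiquitous factor that delivers aminoacyl-tRNA, had a log2 fold change of 0.22 (adjusted p 0.361). Eef1a2, its form in adult muscle and neurons, had 929, 627 and 728 CPM in TAC hearts, all below the 996, 1085 and 998 CPM of sham hearts (-0.43, adjusted p 0.167). Within the ribosomal protein family, the 23 tested genes with a pyrimidine run near the annotated start had a median of 0.26 and the 35 without one 0.25. This split depends on the annotated starts, so it cannot show whether the TOP motif matters.

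Genes that build ribosomes in the nucleolus were high in the same heart. Of 30, 0 passed, and their median log2 fold change was 0.30. Their median lay at -0.04, -0.01 and 0.76 above the sham mean in TAC replicates 1, 2 and 3, so that it was near the sham level in TAC replicate 1, where the ribosomal protein genes were at 0.22. Nop58, a core protein of box C/D particles, had 7.29, 13.6 and 19.5 CPM after TAC and 4.67, 4.86 and 5.40 CPM after sham surgery (1.43, SE 0.32, adjusted p 0.0627). Ncl, nucleolin, had 102, 133 and 179 CPM in TAC hearts and 77.0, 81.4 and 66.3 CPM in sham hearts (0.88, SE 0.20, adjusted p 0.063). In both, all TAC hearts lay above all sham hearts. Ubtf, which opens ribosomal DNA for RNA polymerase I, was at -0.10 (adjusted p 0.588). Among 22 genes of mTORC1 and growth control 0 passed, 12 fold changes were positive and 10 negative, and the median was 0.01. The 2 most abundant, Eif4ebp2 and Tsc2, were both among the negative ones. Eif4ebp2, which represses cap-dependent initiation until mTORC1 phosphorylates it, had a log2 fold change of -0.36 (adjusted p 0.098), and Tsc2, which holds mTORC1 down, of -0.25 (0.238). Myc, a transcription factor that raises ribosome production, had 4.93, 6.08 and 17.8 CPM after TAC and 3.03, 3.05 and 5.13 CPM after sham surgery, with TAC replicate 3 far above the rest and TAC replicate 1 inside the sham range (1.36, SE 0.49, adjusted p 0.136).

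The mitochondrial ribosome, which makes the proteins encoded by mitochondrial DNA, had the other sign. Of its 78 nuclear-encoded proteins 0 passed, 63 fold changes were negative and 15 positive, and the median was -0.15. Its medians lay at 0.03, -0.33 and -0.23 above the sham mean in TAC replicates 1, 2 and 3. TAC replicate 3, where cytosolic ribosomal protein genes were highest, was thus below the sham hearts for the mitochondrial ribosome, and TAC replicate 2 was lower still. The most abundant members in CPM, Mrpl42 and Mrpl12, had log2 fold changes of -0.32 and -0.07. Mrpl4 had 62.5, 50.4 and 47.5 CPM after TAC and 71.0, 75.2 and 72.0 CPM after sham surgery (-0.44, SE 0.13, adjusted p 0.0901), groups that did not overlap.

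**Figure D5:**
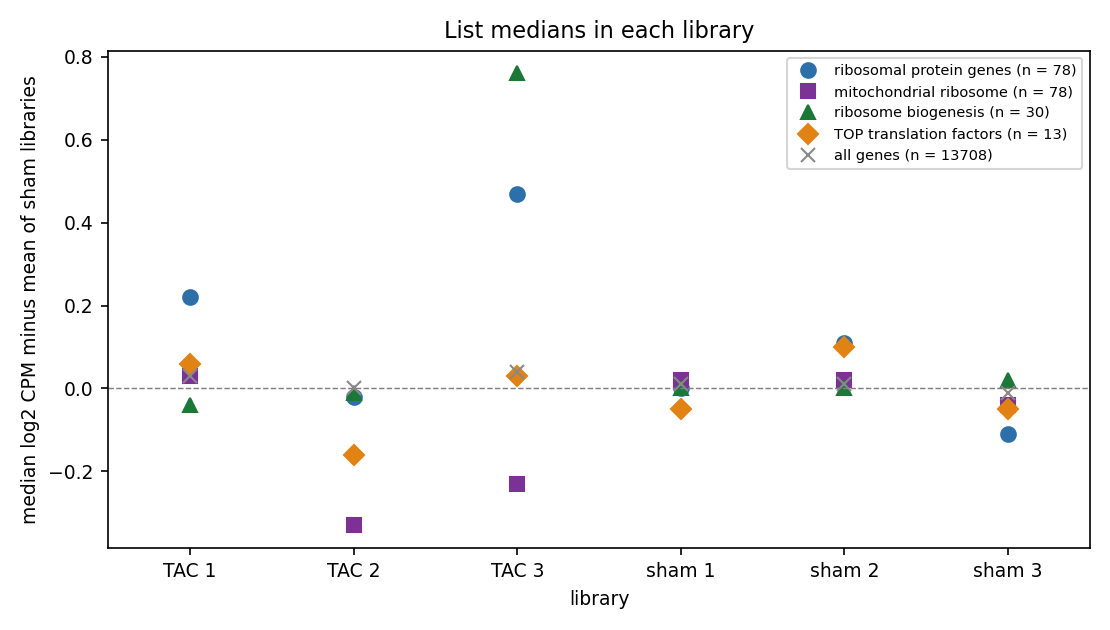
Median log2 CPM minus the mean of the sham libraries (vertical axis) in each library for the ribosomal protein genes, the mitochondrial ribosome, ribosome biogenesis, TOP translation factors and all tested genes. TAC replicate 3 holds the highest medians of cytosolic ribosomal protein genes (0.47) and biogenesis genes (0.76), and the mitochondrial ribosome is below the sham level in TAC replicates 2 and 3 (-0.33 and -0.23).

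Markers of other cells also differed between these hearts, and in whole tissue fewer cells of a type and less RNA per cell cannot be told apart. The 6 cardiomyocyte markers summed to 40383, 36358 and 28935 CPM in TAC replicates 1, 2 and 3 and to 41346, 41224 and 40196 CPM in sham hearts, with 0 of 6 past the threshold. TAC replicate 3, with the highest ribosomal protein level, had the lowest sum. Myh6, the most abundant of them, had 16543, 14267 and 11526 CPM after TAC and 19105, 19392 and 20273 CPM after sham surgery. Actc1 and Tnnt2 had positive log2 fold changes (0.10 and 0.17) and the other 4 markers negative ones, so the sum does not stand for every marker. Macrophage markers summed to 790, 1188 and 1017 CPM after TAC and 576 to 682 CPM after sham surgery, with 2 of 7 (Cd68 and Mrc1) past the threshold. Neutrophil markers summed to 21.9, 101 and 123 CPM after TAC and 2.87 to 8.06 CPM after sham surgery, with 2 of 5 tested (S100a8 and S100a9) past it. Both sums were high in TAC replicate 2, where the ribosomal protein genes were at the sham level. A relation of any marker sum to the ribosomal protein values was not tested.

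The remaining marker lists gave these sums. Red cell and platelet markers had 1396 to 2461 CPM after TAC and 663 to 1127 CPM after sham surgery, with 3 of 7 (Alas2, Itga2b and Slc4a1) past the threshold. Lymphocyte markers had 13.1 to 35.4 CPM after TAC and 7.03 to 8.54 CPM after sham surgery, with 0 of 7. Fibroblast markers had 2122 to 3198 CPM after TAC and 4213 to 4705 CPM after sham surgery, with 0 of 6. Much of that gap was Gsn, with 725 to 1719 CPM after TAC and 2573 to 2852 CPM after sham surgery. Only 1 of the 6, Gsn, had groups that did not overlap, and log2 fold changes ran from -1.12 for Gsn to -0.05 for Pdgfra. Endothelial markers had 1367 to 1525 CPM after TAC and 1638 to 1769 CPM after sham surgery, with 1 of 6 (Tie1) past the threshold. Smooth muscle and pericyte markers had 817 to 986 CPM after TAC and 988 to 1220 CPM after sham surgery, with 0 of 5. No marker was at 0 in every library, and the part of these cells in the ribosomal protein values was not tested.

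Base composition moved with the fold changes too. Across the 78 genes the log2 fold change and the GC content had a Spearman's rho of -0.28 and a Pearson's r of -0.24, and across 13702 tested genes -0.31 and -0.21. These are correlations across genes that share libraries and are no independent replicates. The family's median GC content was 51%, against 49.8% for all tested genes, and the part of GC content in the family's values was not tested.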

How the data were processed

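Poly(A) RNA of 6 hearts was sequenced from NEBNext Ultra libraries, per the labels' protocols; strand was not stated. The authors deposited estimated counts and FPKM for 22298 genes, on GRCm38. The submitters' processing notes list HISAT2, Bowtie2 2.2.8, StringTie 1.3.1 and DESeq2 with no roles. Estimated counts were rounded and tested with edgeR 4.0.16 (minimum count 10, TMM, quasi-likelihood, two-sided, no covariate), adjusted over 13708 genes. The fit was first run on simulated counts with a dispersion below the common dispersion of these data (0.0473). That run therefore does not give the error rate or the power for these hearts. CPM use TMM-scaled sizes, deviations use log2 of CPM plus 0.5, and standard errors are fold changes over the square root of F. Counts of 15 ribosomal protein genes were fractional in some library (possibly reads shared between genes), and exons of 15 overlap another measured gene. P-values of the fits set a group difference against the spread between these hearts.

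Members and lists were chosen with earlier results of these data known. A result for 1 gene of the ribosomal components outside the naming rule is not reported here, and that gene is left out of the list's count and median. Named genes were the 6 highest and up to 6 lowest fold changes, paralogs with an l suffix and their parents, the 5 highest and 5 lowest FPKM, genes fixed by role, and, of other lists, those past the threshold and the 2 most abundant. Rpl36al, Nop58, Myc, Mrpl4 and the non-overlapping members were named after their values were seen. Alternatives were DESeq2 1.42.0, limma 3.58.1 on FPKM, other scalings and filters, a replicate block and each library left out.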

Additional observations from a re-analysis of the deposited data

How the results depend on the processing

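The family's median log2 fold change was positive under all 16 alternatives, between 0.08 (without TAC replicate 3) and 0.32 (without TAC replicate 2). With the Wald test of DESeq2, 2 of 78 ribosomal protein genes passed with higher values after TAC (Rpl3 and Rps27), as against 0. Over all 13708 genes tested 1071 were higher and 598 lower, against 153 and 74 with edgeR. limma on FPKM plus 1 gave 59 higher over all genes and on FPKM plus 0.1 gave 64. With single libraries left out, all-gene counts ran from 4 to 1837 higher and from 8 to 1392 lower. Counts of ribosomal protein genes ran from 0 to 1 higher and 0 to 1 lower. The upper ends came without TAC replicate 1, where 13907 genes were tested and, of 78 ribosomal protein genes, Rpl37 and Rpl3l passed. The cause was not tested. Of 488 values of 31 named genes under the alternatives, 484 stayed on the same side of the threshold and 4 passed only there. The sign differed in 19, none of them called. Same-numbered hearts did not deviate together (correlations 0.011, -0.111 and -0.0245), so the numbers are not taken as pairs; a replicate block left 48 higher and 26 lower over all genes, 0 among ribosomal protein genes, with a family median of 0.23. With 3 hearts a group, differences of the size seen here were mostly not separable from the spread between TAC hearts.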
